A study of Rattus norvegicus with 23 samples.

Results

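Combined treatment with semaglutide and the gut peptide PYY was set against saline in rat femora, by bulk sequencing of polyadenylated RNA. The comparison took 10 of the 23 libraries of the series, chosen by their titles: A248, A251, A253, A318 and A320 from the combination group, and A224, A226, A229, A232 and A265 from the saline group. All 10 were labelled as femora of female Wistar rats in a metabolic osteoporosis model (MetOP) that pairs high-fat feeding with L-NAME, which blocks nitric oxide synthases. The combination rats were labelled Sema+PYY and the controls saline. Semaglutide alone (5 libraries) and PYY alone (4 libraries) served as further arms on the same background. The design text names the peptide PYY3-36, but the treatment labels of the PYY-alone libraries read PYY3-36, PYY3-37, PYY3-38 and PYY3-39, one form in each library and unexplained, and the combination labels give no form. The labels give no dose, treatment time or age. Titles of all these groups also carry the letters lfd, which no label explains, and every library has the same batch label. The labels do not state whether the 5 libraries of a group are 5 animals, and p-values therefore measure only the spread between these samples, which may be technical. The 5 values of a group are listed below in the order of the library names above, and levels are CPM (read counts relative to library size), scaled by trimmed-mean (TMM) factors.

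Semaglutide activates the GLP-1 receptor, which lowers appetite and raises insulin secretion, and PYY3-36 acts mainly through the neuropeptide Y receptor Y2 on neurons. Bone is laid down by osteoblasts, which secrete and mineralise a collagen matrix, and is removed by osteoclasts, which dissolve it with acid and proteases. A whole femur also holds growth and joint cartilage, marrow with blood-forming cells, vessels, and remnants of attached muscle, so its RNA is a mixture.

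Library totals were 19.2 to 40.7 M counts with the combination and 26.6 to 32.1 M with saline. Mitochondrially encoded genes took 67.1% ± 13.5 of the counts in combination libraries and 75.3% ± 7.83 in saline libraries (SD, n = 5 each). Nuclear genes thus had 6.96 to 12.3 M counts with the combination and 4.28 to 11.0 M with saline. Skeletal muscle genes took 1.51 to 29.0% of those with the combination and 10.6 to 20.6% with saline. Combination libraries were the more scattered group. The median SD of log2 CPM over autosomal genes was 0.87 with the combination and 0.64 with saline, and 62.7% of genes had the larger SD with the combination.

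Some combination libraries went against their female label. The Y-linked genes Eif2s3y, Ddx3, Kdm5d and Uty summed to 1623 counts in A248, 87 in A251, 0 in A253, 638 in A318 and 24 in A320, and to 0 in each of the 5 saline libraries. Outside these groups, the healthy control libraries A387 and A389 had 45 and 9 such counts, and the semaglutide and PYY libraries 0. A248 and A318 had counts of all 4 genes. Whether these libraries hold male RNA, in whole or in part, was not tested, and the main results below are also given without the libraries labelled A248 and A318.

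No gene passed the test across all genes. The quasi-likelihood test of edgeR called 0 of 15271 tested genes (0%) at an adjusted p under 0.05, and its smallest adjusted p was 1.00. At an unadjusted p under 0.05, 468 genes (3.06%) were listed, 223 with higher and 245 with lower levels under the combination, where 764 would be 5% of the genes tested. The limma voom test also called 0 genes. DESeq2 called 5, namely Dach1, Lrrc70, LOC691422 and the Y-linked Kdm5d and Uty. Of the 14695 autosomal genes tested, 7758 had a higher and 6936 a lower fitted level with the combination, with a median log2 fold change of 0.03. Without A248 and A318, edgeR called 0 genes, with 223 higher and 249 lower at an unadjusted p under 0.05. With A253, the library without Y-linked counts, as the only combination library, edgeR called only lower genes, on the assumption that a lone library varies like the other groups. Many had very large differences, such as a log2 fold change of -10.96 for Nxpe1 and -8.27 for Dph2. Few or no counts of a gene in A253 would give such values. Mitochondrial genes took 82.6% of the counts in A253 and 83.9% in saline A229. Nuclear genes had 7.08 M counts in A253, 6.96 M in A248, 7.04 M in A320 and 4.28 M in saline A229. The cause of the very low levels in A253 was not tested. These calls rest on 1 library. The common biological coefficient of variation was 69.9%.

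Genes of bone-forming cells had lower fitted levels with the combination throughout their list, though none was called. All 23 tested members of the osteoblast and bone matrix list had a negative log2 fold change, with a median of -1.20, and 8 of them had an unadjusted p under 0.05 on the lower side, against 1.57% of all autosomal genes. Without A248 and A318, 21 of 23 were lower, the median was -1.11 and 3 had an unadjusted p under 0.05. Leaving out single libraries moved the median between -1.62 (without A253) and -0.68 (without saline A224). Without A224, 19 of 23 were lower and 1 had such a p. That count was 3 without A251, 3 without A318 and 4 without A320. In these bulk samples, fewer cells of a type and less RNA per cell cannot be told apart.

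Ibsp, the bone sialoprotein of mineralised matrix (chromosome 14, 5439829 to 5452693), stood at 70.6, 6.95, 36.5, 13.9 and 33.6 CPM in combination libraries, against 453, 131, 274, 139 and 27.0 CPM in saline libraries. Every combination library lay below 4 of the 5 saline libraries, and only saline A265 fell into the combination range. The log2 fold change was -2.66 ± 0.82 (SE; unadjusted p = 0.00363, edgeR adjusted p = 1.00), and -3.00 ± 1.02 without A248 and A318. Spp1, which encodes osteopontin, a phosphoprotein that binds osteoclasts to bone, had 13.6 to 129 CPM in combination libraries and 30.3 to 822 CPM in saline libraries, where A265 was lowest and the other 4 lay between 202 and 822 CPM. Its log2 fold change was -2.32 ± 0.83, with A265 as the only saline library in the combination range.

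Saline A265 was again the low saline library for the collagens. Col1a1, the main collagen chain of bone (chromosome 10, 79883622 to 79900624), was at 434, 56.8, 614, 186 and 236 CPM with the combination and at 2934, 888, 897, 645 and 138 CPM with saline. Only saline A265 overlapped the combination range. Its log2 fold change was -1.85 ± 0.84, but -1.07 once saline A224 was left out, a shift of more than 1.5 times. Its partner chain Col1a2 had a log2 fold change of -1.91 ± 0.80, and Sparc, a collagen-binding matrix protein, -1.33 ± 0.64. Mmp13, the collagenase of osteoblasts and hypertrophic cartilage, was at -2.42 ± 0.87, and the sphingomyelinase gene Smpd3, needed for mineralisation, at -2.52 ± 1.10. Alpl, the phosphatase that frees phosphate for mineral, averaged 12.9 ± 9.16 CPM with the combination and 36.5 ± 28.5 CPM with saline (SD, n = 5 each; log2 fold change -1.50 ± 0.68, and -0.95 without A224).

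**Figure D1:**
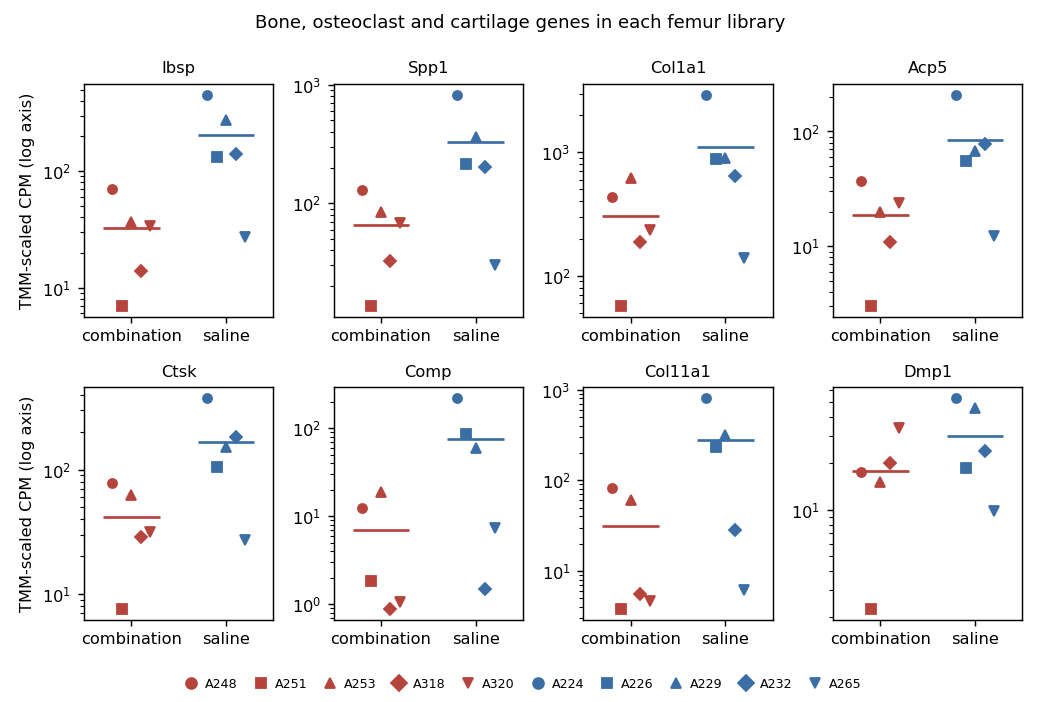
TMM-scaled CPM (log axis) of 8 genes in the 5 combination (red) and 5 saline (blue) libraries. Symbols are libraries and bars are group means. Combination A251 is lowest for Ibsp, Spp1, Col1a1, Acp5, Ctsk, Col11a1 and Dmp1, and saline A265 lies within the combination range of all 8 genes.

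The regulators of the lineage had smaller fitted differences than Ibsp. Runx2, the transcription factor that commits cells to bone, averaged 11.6 ± 9.56 CPM with the combination and 23.9 ± 15.8 CPM with saline. Its log2 fold change was -1.05 ± 0.66 (unadjusted p = 0.126), with -0.68 without A224 and -1.62 without A253. Sp7, which acts downstream of Runx2, was at -1.20 ± 0.75, and Pth1r, the receptor of parathyroid hormone, at -1.25 ± 0.73. Bglap, the osteocalcin gene of mature osteoblasts (chromosome 2, 173838518 to 173839495), had 39.3, 4.70, 74.3, 18.6 and 31.1 CPM with the combination and 80.1, 34.1, 68.6, 44.3 and 18.5 CPM with saline. The groups overlapped widely there, with a log2 fold change of -0.55 ± 0.63, between -1.07 without A253 and -0.25 without A251.

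Ibsp and Bglap are both classical osteoblast markers and differed in size of difference (-2.66 and -0.55), so their promoters are shown side by side, taken from RefSeq (build GRCr8, whose coordinates differ from those of the deposited table; 250 bases before to 50 after the start, minus strand of the genome). Capitals mark the CCAAT box letters CCAAT or ATTGG and the RUNX letters TGTGGT or ACCACA, searched on both strands, which share no letters in the promoters shown. The RUNX letters stand in 17.3% of 33469 RefSeq rat promoters of this length and the CCAAT letters in 37.5%. Of the 15 list members with a promoter entry, 4 held the RUNX letters (Bglap, Mmp13, Runx2 and Sparc) and 3 the CCAAT letters (Bglap, Col1a2 and Ibsp). A match describes letters only. The Ibsp window is chr14:5757193-5757492 and the Bglap window chr2:176137269-176137568.
Ibsp: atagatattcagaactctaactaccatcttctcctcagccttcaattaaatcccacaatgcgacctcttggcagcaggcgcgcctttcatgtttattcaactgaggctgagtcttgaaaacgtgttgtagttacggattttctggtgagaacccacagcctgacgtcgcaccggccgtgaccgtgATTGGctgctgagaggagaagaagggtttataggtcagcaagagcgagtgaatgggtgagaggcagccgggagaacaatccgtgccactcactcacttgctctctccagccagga
Bglap: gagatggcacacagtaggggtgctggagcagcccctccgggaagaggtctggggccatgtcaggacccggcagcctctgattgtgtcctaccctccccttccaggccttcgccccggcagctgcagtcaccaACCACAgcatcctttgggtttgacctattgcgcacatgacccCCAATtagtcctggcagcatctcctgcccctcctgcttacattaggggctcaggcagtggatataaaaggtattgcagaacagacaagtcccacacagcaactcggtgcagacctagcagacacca

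Osteocyte genes showed no common direction. Of 12 tested members, 6 were higher and 6 lower, with a median log2 fold change of -0.04 and 0 at an unadjusted p under 0.05. Dmp1, a matrix protein that osteocytes use to control phosphate, had 17.5, 2.25, 15.1, 20.1 and 33.9 CPM in combination libraries and 53.2, 18.7, 45.8, 24.0 and 9.75 CPM in saline libraries. The ranges overlapped (log2 fold change -0.77 ± 0.51, and -0.47 without A224 or without A251). Sost, whose product sclerostin restrains bone formation, averaged 1.57 ± 1.54 CPM with the combination and 1.75 ± 1.73 CPM with saline, with 0 in combination A251 and saline A265, and its sign changed when single libraries were left out.

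Osteoclast genes also had lower fitted levels, among them enzymes of matrix breakdown. Of 20 members, 18 were lower and 2 higher, with a median of -0.76 and 4 at an unadjusted p under 0.05 on the lower side, against 1.57% of autosomal genes. Without saline A224, 16 were lower, the median was -0.50 and 0 had such a p, and without saline A265, 8 had one. Without A248 and A318 the counts were 18 and 2 again, the median -0.64 and 3 had such a p. Acp5, the tartrate-resistant phosphatase of osteoclasts (chromosome 8, 20663985 to 20667929), was at 36.8, 3.02, 19.7, 11.0 and 23.8 CPM with the combination and at 209, 55.8, 67.7, 77.8 and 12.2 CPM with saline. Ctsk, the collagen-degrading cathepsin K (chromosome 2, 183058569 to 183069550), was at 78.4, 7.52, 62.1, 28.7 and 31.3 CPM with the combination and at 376, 104, 151, 181 and 27.3 CPM with saline. In both genes saline A265 was the only saline library inside the combination range. Their log2 fold changes were -2.17 ± 0.84 and -2.01 ± 0.79, and -2.45 and -2.32 without A248 and A318.

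Other parts of the resorption programme differed in size. Atp6v0d2, a subunit of the acid pump of osteoclasts, was at -2.49 ± 1.12. Ocstamp, a fusion protein of osteoclast precursors, had 0 counts in all 5 combination libraries and 51 counts in saline, all in A224 and A226. Mmp9 (-0.61 ± 1.04) was highest in combination A320, at 86.1 CPM, and Nfatc1, the master regulator of osteoclast formation, was at 0.19 ± 0.23. The signals that steer osteoclasts were scarce and split, with 6 of 12 higher, 6 lower and 0 at an unadjusted p under 0.05. Tnfsf11, the osteoclast-forming ligand RANKL, averaged 0.584 ± 0.707 CPM with the combination and 1.00 ± 1.21 CPM with saline. Its decoy receptor Tnfrsf11b averaged 4.81 ± 7.66 CPM with the combination and 6.94 ± 5.72 CPM with saline, with 18.3 CPM in combination A253 alone, and its receptor Tnfrsf11a averaged 1.08 ± 0.727 CPM with the combination and 2.72 ± 2.96 CPM with saline. Each of these 3 values leaned on 1 library: without A224 the log2 fold changes were 0.23 for Tnfsf11 and -0.40 for Tnfrsf11a, against -0.79 and -1.34 with it, and without A253 that of Tnfrsf11b was -2.30, against -0.53.

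Cartilage genes had the largest median difference of the 40 lists, with high and low libraries in each group. All 16 members were lower with the combination, with a median log2 fold change of -3.16. Of these, 3 had an unadjusted p under 0.05, against 1.57% of autosomal genes on the lower side. The median was -3.14 without A248 and A318, between -3.69 and -2.11 when single libraries were left out and -2.06 with the mean log2 CPM of the muscle list added to the model, where 0 members had such a p. The count of 3 was also 0 without A224, without A251, without A318, without A320 and with voom. Comp, a matrix protein of cartilage and tendon (chromosome 16, 19047207 to 19055845), had 12.4, 1.85, 19.0, 0.876 and 1.07 CPM with the combination and 221, 87.1, 59.3, 1.48 and 7.26 CPM with saline. Col11a1, a collagen of cartilage fibrils (chromosome 2, 201820715 to 202013853), had 82.8, 3.79, 61.0, 5.55 and 4.65 CPM with the combination and 809, 235, 319, 28.3 and 6.17 CPM with saline. Libraries A248 and A253 were high among the combination, and A224, A226 and A229 among saline, and the other libraries of each group were lower. The log2 fold changes were -3.43 ± 1.44 and -3.15 ± 1.35.

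The split ran through the whole list. Its mean log2 CPM was 3.29, -0.13, 3.58, -1.51 and -1.32 in combination libraries and 6.66, 5.19, 5.22, 0.18 and -0.29 in saline libraries. Acan, the main proteoglycan of cartilage, followed it (log2 fold change -2.58 ± 1.68), as did Col10a1, the collagen of hypertrophic chondrocytes, which was 0 in A318 and A320 (-3.23 ± 1.91, and -1.96 without A224). Neither had an unadjusted p under 0.05 (0.140 and 0.106).

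**Figure D2:**
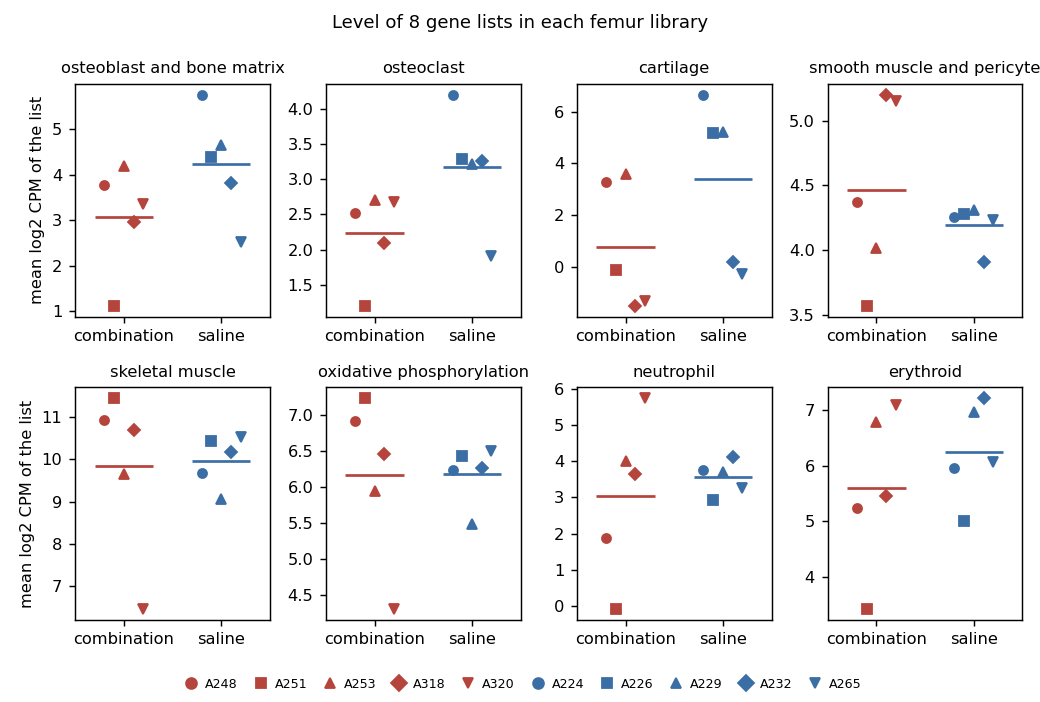
Mean log2 CPM of the tested genes of 8 lists in each combination (red) and saline (blue) library, with group means as bars. Cartilage splits into high and low libraries in both groups, and A320 is lowest for skeletal muscle (6.46) and highest for neutrophil genes (5.76).

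The position of single libraries bears on these groups. A251, lowest for the osteoblast list (mean log2 CPM 1.12), had the largest muscle share of the 10 libraries (29.0%) and the smallest mitochondrial share (46.1%). Saline A265, lowest of its group at 2.52, had a muscle share of 20.6%. With the muscle level in the model, 22 of 23 osteoblast genes were lower (median -1.12) and 18 of 20 osteoclast genes (median -1.10). Without A251 the direction of the osteoblast, osteoclast and cartilage medians was kept as well. The part of the muscle and mitochondrial shares in these results was not tested further.

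In the fibroblast list 10 of 17 were lower and 7 higher, with a median of -0.40. On the lower side 2 had an unadjusted p under 0.05, against 1.57% of autosomal genes. The median was -0.13 without saline A224, -0.15 without A320 and -0.83 without A253, and 0 had such a p without A224, without A251 or without A248 and A318. Col6a3, a microfibril collagen, averaged 32.1 ± 13.1 CPM with the combination and 82.9 ± 63.6 CPM with saline (log2 fold change -1.37 ± 0.56, and -0.83 without A224). Fn1, the fibronectin gene, averaged 92.7 ± 62.5 CPM with the combination and 378 ± 417 CPM with saline, with 1032 CPM in saline A229 (-2.03 ± 0.97, and -1.21 without A229). Fbn1, the fibrillin of elastic microfibrils, was at 0.31 ± 0.53. In the tendon and periosteum list 7 of 9 were lower, with a median of -0.54, but -0.31 without A320 and -0.33 without A251. Fmod was at -1.11 ± 0.63 and Col12a1 at -1.35 ± 0.78, or -0.89 without A224 and -2.17 without A253.

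Smooth muscle genes had mostly higher fitted levels with the combination, though none was called. Of 13 members of the smooth muscle and pericyte list, 11 were higher and 2 lower, with a median log2 fold change of 0.63 and 3 at an unadjusted p under 0.05, against 1.46% of autosomal genes on the higher side. Without A248 and A318, 12 were higher, the median was 0.64 and 1 had such a p. The median stayed positive in 19 alternatives, lowest with voom (0.21), where 0 had such a p, and was 0.35 with the muscle level in the model, 0.40 without A320 and 0.46 without A318, where 1 had one in each. The same count was 1 without saline A224, A226 or A232. List medians were not computed for A253 as the only combination library, whose mean log2 level of the list was 4.02, below the saline mean of 4.20 ± 0.16. Tagln, an actin-binding protein of contractile cells (chromosome 8, 46222472 to 46230668), was at 33.3, 17.4, 63.8, 117 and 167 CPM in combination libraries, against 27.8, 31.7, 37.3, 34.9 and 41.3 CPM in saline libraries. Acta2, smooth muscle actin (chromosome 1, 231746548 to 231759554), was at 30.0, 12.0, 22.6, 127 and 126 CPM with the combination and at 19.1, 28.9, 32.9, 26.4 and 39.6 CPM with saline. Only A318 and A320 exceeded every saline library for Acta2, joined by A253 for Tagln, and A251 lay below all saline libraries for both. The log2 fold changes were 1.21 ± 0.44 and 1.11 ± 0.50. Tagln was at 0.74 without A320, and Acta2 at 0.70 without A318 or without A320.

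Eln and Gja4, named for their small p-values and members of no list, had the same high libraries. Eln, which encodes the elastin of artery walls, had 13.1, 6.82, 11.9, 42.3 and 44.9 CPM with the combination and 15.0, 8.19, 5.08, 7.09 and 10.2 CPM with saline (log2 fold change 1.38 ± 0.46). Gja4, the connexin of arterial endothelium, had 2.92, 3.73, 0.890, 9.68 and 19.3 CPM with the combination and 3.03, 2.58, 2.20, 1.09 and 1.76 CPM with saline (1.77 ± 0.54, and 1.01 without A320). A318 and A320 were again the top libraries. The endothelial list as a whole had 12 of 18 higher, a median of 0.14 and 0 at an unadjusted p under 0.05, and its median was -0.12 without A320. Of its members, Sox17, an arterial transcription factor, was at 0.62 ± 0.35 and Tie1 at 0.50 ± 0.37, and at 0.40 and 0.12 without A320. Outside the list, the endothelial surface protein Ecscr was at 1.53 ± 0.51. Nos3, the endothelial nitric oxide synthase that L-NAME inhibits, averaged 10.4 ± 4.13 CPM with the combination and 10.5 ± 3.49 CPM with saline, a log2 fold change of -0.02 ± 0.38.

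Muscle and energy genes hinged on which libraries were counted. Fitted levels were higher for 26 of 29 skeletal muscle genes (median 0.31) and for 37 of 37 genes of oxidative phosphorylation (median 0.23), with 0 at an unadjusted p under 0.05 in either list. Without A251 these medians were -0.12 and -0.04, and oxidative phosphorylation was at -0.01 without A248 and A318. The mean over libraries of the log2 list level was lower with the combination in both, at 9.83 ± 1.99 against 9.97 ± 0.61 for muscle and 6.17 ± 1.15 against 6.18 ± 0.41 for oxidative phosphorylation (SD, n = 5 each), so the sign depends on the averaging. Acta1, skeletal muscle actin, was at 7813, 13627, 3042, 8856 and 429 CPM with the combination and at 3001, 5501, 2678, 5322 and 5455 CPM with saline. The combination held both the lowest and the 3 highest libraries (log2 fold change 0.62 ± 0.71, and 0.21 without A251).

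Fatty acid oxidation had 21 of 26 higher, with a median of 0.25, but -0.07 without A248 and A318. Its mean log2 level over libraries was lower, at 4.70 ± 1.11 with the combination and 4.75 ± 0.45 with saline. Pdk4, which spares glucose when fat is burned, was at -0.20 ± 0.67. Srebf1, the regulator of lipid synthesis, had 14.6, 47.8, 17.1, 22.9 and 3.99 CPM with the combination and 3.90, 12.0, 3.74, 8.29 and 16.3 CPM with saline (1.27 ± 0.52, and 0.74 without A251). The fatty acid synthesis list it belongs to had 8 of 14 higher and 6 lower, with a median of 0.07, but -0.25 with voom. In that list 1 had an unadjusted p under 0.05 on the higher side, against 1.46% of autosomal genes. Fat cells showed no common direction, with 8 of 15 adipocyte genes higher (median 0.18, and -0.24 without A248 and A318). Adipoq, the adiponectin gene of fat cells, averaged 7.59 ± 6.30 CPM with the combination and 14.8 ± 10.5 CPM with saline (-0.96 ± 0.67, and -0.45 without A265), and Pparg averaged 2.81 ± 2.01 CPM with the combination and 3.82 ± 2.09 CPM with saline (-0.43 ± 0.47, and -0.06 without A229).

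The direction of the neutrophil and T cell lists depended on combination A320, the library with the least muscle (1.51%). Of 19 neutrophil genes 17 were higher, with a median of 0.54, but -0.54 without A320, -0.61 with voom and 0.96 without A248 and A318. Ngp, a granule protein of immature neutrophils, was at 3.35, 2.12, 25.9, 28.2 and 267 CPM with the combination and at 29.3, 15.5, 27.1, 24.5 and 11.6 CPM with saline. Its log2 fold change was 1.60 ± 1.13, and -0.54 without A320. Mpo, the granule peroxidase, averaged 25.7 ± 23.3 CPM with the combination and 21.9 ± 8.64 CPM with saline (0.23 ± 0.77). T and NK cell genes had a median of 0.43, and -1.32 without A320.

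Red cell and proliferation genes leaned the other way. Of 19 erythroid genes 17 were lower (median -0.22, -0.71 without A320 and 0.11 without A248 and A318), and of 34 cell cycle genes 28 were lower (median -0.27, and 0.09 without those libraries). Neither list held a gene at an unadjusted p under 0.05. Hbb, the beta-globin gene, was at 3122, 479, 7967, 3563 and 9210 CPM with the combination and at 3736, 2332, 13640, 10584 and 6246 CPM with saline, with overlapping ranges. Among macrophage genes 9 of 15 were lower, with a median of -0.27, but 0.07 without A248 and A318 and 0.01 without A251. C1qa, a complement subunit made by macrophages, averaged 5.04 ± 2.71 CPM with the combination and 9.65 ± 2.46 CPM with saline (-0.93 ± 0.43).

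The drugs' own receptors were not measurable in these femora. Glp1r and Npy2r, the receptors of semaglutide and PYY3-36, had 0 counts in all 10 libraries. This allows levels of up to 0.0738 to 0.156 CPM with the combination and 0.0934 to 0.113 CPM with saline (3 counts per library, counting error only). Unlike the other levels, these bounds are relative to total counts, without TMM scaling. Saline A229 and A265 had TMM factors of 0.562 and 0.561, and combination A253 had 0.636, so their bounds are higher on the scaled levels. A253 is the library with the bound of 0.0738 CPM. Npy1r, a related receptor found in bone and vessels, averaged 4.19 ± 3.45 CPM with the combination and 4.27 ± 2.02 CPM with saline (log2 fold change -0.02 ± 0.56). Of 7 tested peptide receptor genes 6 were lower, with a median of -0.62, but -0.11 without saline A265 and -0.33 without A251, and none had an unadjusted p under 0.05.

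Of 24 Wnt genes 17 were lower, with a median of -0.18 that was -0.07 without A251 and -0.34 without A253. An unadjusted p under 0.05 was found for 1 on the higher and 2 on the lower side, against 1.46% and 1.57% of autosomal genes. The higher one was Notum, an enzyme that inactivates Wnt proteins, with 23 counts in the combination, all in A248, and 0 counts in saline. Wif1, a secreted Wnt inhibitor, was at 3.78, 1.04, 3.33, 2.25 and 1.54 CPM with the combination and at 16.4, 3.73, 16.8, 2.50 and 3.63 CPM with saline (log2 fold change -1.85 ± 0.72). Lrp4, the receptor that presents sclerostin, was at -0.90 ± 0.40. Apc, which keeps beta-catenin low and is not on the list, had 10.7, 10.1, 6.81, 6.13 and 12.8 CPM with the combination and 12.2, 13.1, 15.8, 16.5 and 17.6 CPM with saline, with only A320 reaching into the saline range (-0.69 ± 0.21, edgeR adjusted p = 1.00). In the BMP and TGF beta list 15 of 23 were lower (median -0.16), with 0 at an unadjusted p under 0.05.

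The IGF axis had 10 of 16 higher (median 0.21, and -0.09 with voom), with 2 higher and 1 lower at an unadjusted p under 0.05, against the same shares of autosomal genes. The lower one was Pappa, a protease that frees IGF from its binding proteins, with 0 counts in the combination and 32 counts in saline, all in A226 and A232. Igf1r, the receptor of IGF-1, had 0.526, 0.772, 0.890, 1.42 and 3.90 CPM with the combination and 0.231, 0.205, 0, 0.326 and 0 CPM with saline. The groups did not overlap, and saline held only 23 counts in all 5 libraries (log2 fold change 3.21 ± 1.28, and 3.51 ± 1.43 without A248 and A318). Its ligand Igf2 had 32.9, 39.4, 48.8, 52.8 and 41.8 CPM with the combination and 16.5, 30.7, 25.4, 24.1 and 46.4 CPM with saline (0.59 ± 0.26), where A265 was the saline library inside the combination range. Igf1 averaged 5.69 ± 4.18 CPM with the combination and 7.27 ± 3.29 CPM with saline (-0.35 ± 0.52, between -0.89 without A253 and -0.08 without A265).

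Groups that did not overlap were found for 25 genes with higher (0.170%) and 32 with lower levels (0.218%) among the 14695 autosomal genes tested. With 5 libraries in each group, some genes separate fully by chance. These shares were not tested against chance, so a lack of overlap is no evidence of a drug effect. Of the named genes, 9 were among them, 4 higher and 5 lower. Lats2, a Hippo pathway kinase that restrains growth (chromosome 15, 31825092 to 31877220), was at 20.5, 16.2, 24.8, 19.4 and 17.4 CPM with the combination and at 13.8, 12.1, 8.75, 8.40 and 11.9 CPM with saline. Its log2 fold change was 0.84 ± 0.21 (unadjusted p = 0.000486, edgeR adjusted p = 1.00), and 0.82 ± 0.25 without A248 and A318. Nek3, a NIMA-related kinase (chromosome 16, 69867047 to 69892508), was at 3.30, 6.82, 5.19, 6.09 and 2.61 CPM with the combination and at 1.64, 2.46, 0.200, 1.70 and 1.57 CPM with saline (1.65 ± 0.47). Ccnk, the cyclin partner of the transcription kinases CDK12 and CDK13, was at 9.32, 15.4, 12.7, 12.1 and 9.46 CPM with the combination and at 4.60, 8.27, 3.81, 9.23 and 6.78 CPM with saline (0.85 ± 0.26).

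Lower with no overlap was Dach1, a transcriptional repressor (chromosome 15, 74529208 to 74909922), at 1.63, 1.14, 0.271, 0.626 and 1.13 CPM with the combination and at 1.77, 4.30, 2.74, 5.18 and 6.78 CPM with saline. Its log2 fold change was -2.11 ± 0.50 (unadjusted p = 0.000341, edgeR adjusted p = 1.00), and -2.28 ± 0.61 without A248 and A318. The gap between the groups was narrow, since combination A248 and saline A224 were close. In DESeq2 its adjusted p was 0.0179. Lrrc70, a leucine-rich repeat gene, had 0.143, 0.134, 0, 0 and 0 CPM with the combination and 1.00, 1.97, 0.468, 1.85 and 0.605 CPM with saline (DESeq2 adjusted p = 0.0442). LOC691422 (chromosome 7, 12647926 to 12693574), named here after its values were seen because DESeq2 called it (adjusted p = 0.0115), had 0.0478, 0.437, 0, 0 and 0 CPM with the combination and 0.719, 1.47, 1.00, 2.68 and 0.726 CPM with saline. Both rest on few counts per library. LOC691422 was also called against PYY alone, with voom and without A251, and against semaglutide alone without A251.

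Hsd11b1, which regenerates active glucocorticoid from its inactive form (chromosome 13, 104728539 to 104788687), averaged 1.12 ± 0.543 CPM with the combination and 3.05 ± 1.19 CPM with saline, with the highest combination library at 1.84 CPM below every saline library (-1.45 ± 0.54, and -2.03 ± 0.66 without A248 and A318). The glucocorticoid response list it belongs to had 8 of 13 lower and a median of -0.10. Cmtr2, an mRNA cap methyltransferase, averaged 1.27 ± 0.878 CPM with the combination and 3.40 ± 0.643 CPM with saline (-1.42 ± 0.44). Acbd3, a Golgi scaffold protein, averaged 6.20 ± 1.52 CPM with the combination and 9.94 ± 0.986 CPM with saline (-0.68 ± 0.22).

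**Figure D3:**
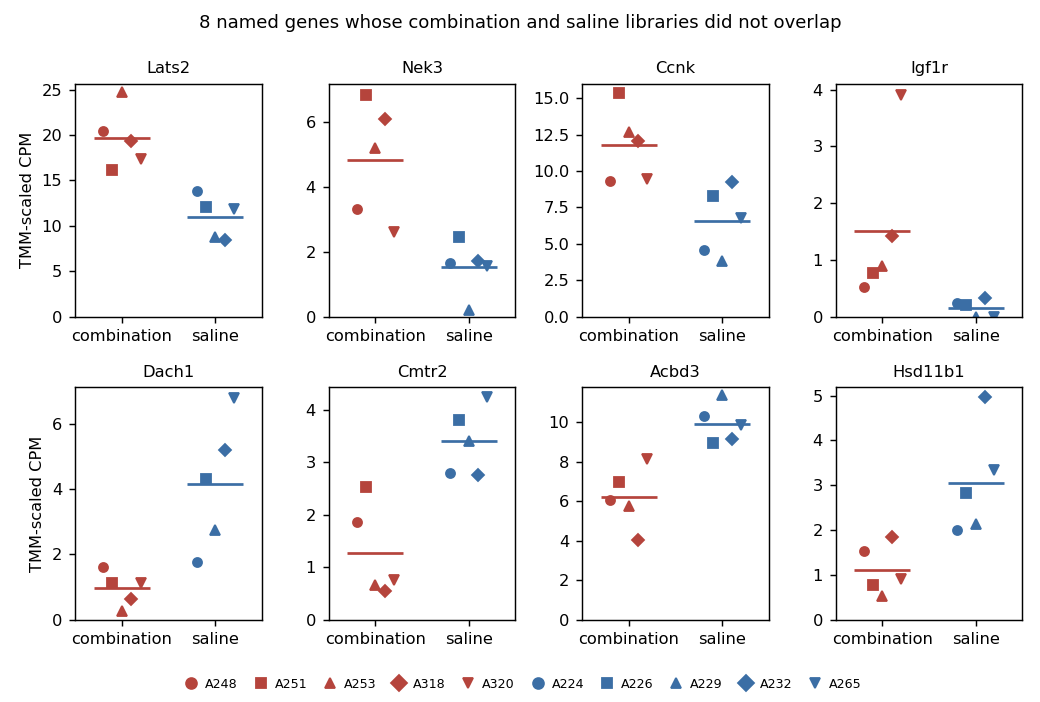
TMM-scaled CPM (linear axes from 0) of 8 named genes in the combination (red) and saline (blue) libraries, with group means as bars. The groups do not overlap in these genes, and the nearest libraries are at 9.32 and 9.23 CPM for Ccnk and at 1.63 and 1.77 CPM for Dach1.

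The other named genes overlapped in at least 1 library. On the higher side these included Mill1 (2.01 ± 0.62, and 1.32 without A320), Pex14, a peroxisome import factor (1.18 ± 0.38), Lysmd4 (1.11 ± 0.37) and Xpa, a DNA damage recognition protein (0.87 ± 0.30). Mill1 and Gja4 were highest in A320, at 16.3 and 19.3 CPM. On the lower side Plekha5 was at 9.66, 6.45, 8.28, 14.2 and 9.74 CPM with the combination and at 80.8, 27.3, 11.6, 11.2 and 9.02 CPM with saline, highest in A224 and A226 (log2 fold change -1.54 ± 0.47, and -0.61 without A224). Podnl1, a small leucine-rich matrix proteoglycan (-2.98 ± 0.93), Edil3, an integrin ligand (-2.55 ± 0.83), and Plekhg4 (-2.68 ± 0.89) were each highest in saline A224, at 25.5, 31.6 and 21.8 CPM.

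The combination was also set against each drug alone, to ask what the second drug adds. Neither comparison had a call in edgeR (0%). Against semaglutide alone, 863 genes (5.65%) had an unadjusted p under 0.05, and against PYY alone 953 genes (6.24%). All 23 osteoblast genes were higher with the combination than with semaglutide (median log2 difference 1.10, 3 at an unadjusted p under 0.05, against 4.02% of autosomal genes) and all 23 were lower than with PYY (median -1.57, 10 at such a p, against 4.20%). Ibsp averaged 32.3 ± 24.8 CPM with the combination, 17.5 ± 11.3 with semaglutide, 150 ± 220 with PYY and 205 ± 164 with saline. Ctsk averaged 41.6 ± 28.3 CPM with the combination, 15.8 ± 9.58 with semaglutide, 188 with PYY (range 14.4 to 521) and 168 ± 130 with saline. For Ibsp the PYY libraries had the widest spread of the 4 groups.

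Dmp1 averaged 17.8 ± 11.3 CPM with the combination and 6.42 ± 2.91 CPM with semaglutide (log2 difference 1.47, unadjusted p = 0.0101). Ddr2, a collagen receptor of osteoblasts and fibroblasts, averaged 16.1 ± 6.27 CPM with the combination, 6.01 ± 1.50 with semaglutide, 32.5 ± 10.6 with PYY and 19.3 ± 6.19 with saline. Its difference was 1.42 from semaglutide and -1.01 from PYY, with unadjusted p of 9.20e-05 and 0.00350, neither called after adjustment. Fibroblast genes were higher than with semaglutide in 17 of 17 (median 0.82) and lower than with PYY in 16 of 17 (median -1.69), including Fbn1 at 13.0 ± 5.42 CPM with the combination and 78.5 ± 99.5 CPM with PYY. Cell cycle genes were higher than with semaglutide in 34 of 34 (median 1.23, 15 at an unadjusted p under 0.05, against 4.02%), and neutrophil genes higher than with PYY in 18 of 19 (median 1.83, 7 at such a p, against 2.08%). The mean log2 CPM of the neutrophil list was 1.87, -0.10, 4.02, 3.66 and 5.76 in combination libraries, highest in A320, and 1.09 to 3.05 with PYY. For comparisons with a single drug and for the interaction, list values were not computed with libraries left out.

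The smooth muscle list was higher with the combination than with semaglutide in 9 of 13 (median 0.88, 5 at an unadjusted p under 0.05, against 4.02%) and lower than with PYY in 10 of 13 (median -0.27). Tagln averaged 79.8 ± 61.9 CPM with the combination, 36.5 ± 20.1 with semaglutide, 84.3 ± 35.0 with PYY and 34.6 ± 5.19 with saline. Acta2 averaged 63.5 ± 57.8 CPM with the combination, 30.3 ± 12.1 with semaglutide, 83.7 ± 47.8 with PYY and 29.4 ± 7.64 with saline. Endothelial genes were lower than with PYY in 16 of 18 (median -0.78, 10 at such a p, against 4.20%).

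Departure from additive log2 effects of both drugs was tested as an interaction. No gene was called (smallest edgeR adjusted p = 0.0973), and 700 genes (4.58%) had an unadjusted p under 0.05. All 34 cell cycle genes had a positive interaction (median 1.82, 15 at such a p), as did 19 of 19 erythroid (median 1.97, 8 at such a p) and 13 of 13 megakaryocyte genes (median 2.32, 5 at such a p), against 2.91% of autosomal genes on that side. Members of a list can vary together between libraries. Combination libraries had a mean log2 CPM of 0.09, -1.12, 2.16, 0.26 and 3.16 for the megakaryocyte list, and 0.55 to 4.17 for the cell cycle list. Against saline, the medians without A320 were -0.80 for megakaryocyte, -0.67 for cell cycle and -0.71 for erythroid genes. Single-drug comparisons share the saline libraries, and the values stand side by side only. The erythroid median was -0.22 with the combination, -1.50 with semaglutide and -0.75 with PYY, each against saline, and the osteoblast median -1.20, -2.22 and 0.16. Cartilage stood at -3.16, -5.87 and -0.11. The PYY libraries were split as well, so the last value leans on A216. Their mean log2 CPM of the cartilage list was 0.10 in A215, 7.03 in A216, 1.81 in A219 and -0.88 in A220. The mean of these levels was 2.02 with PYY and 3.39 with saline.

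**Figure D4:**
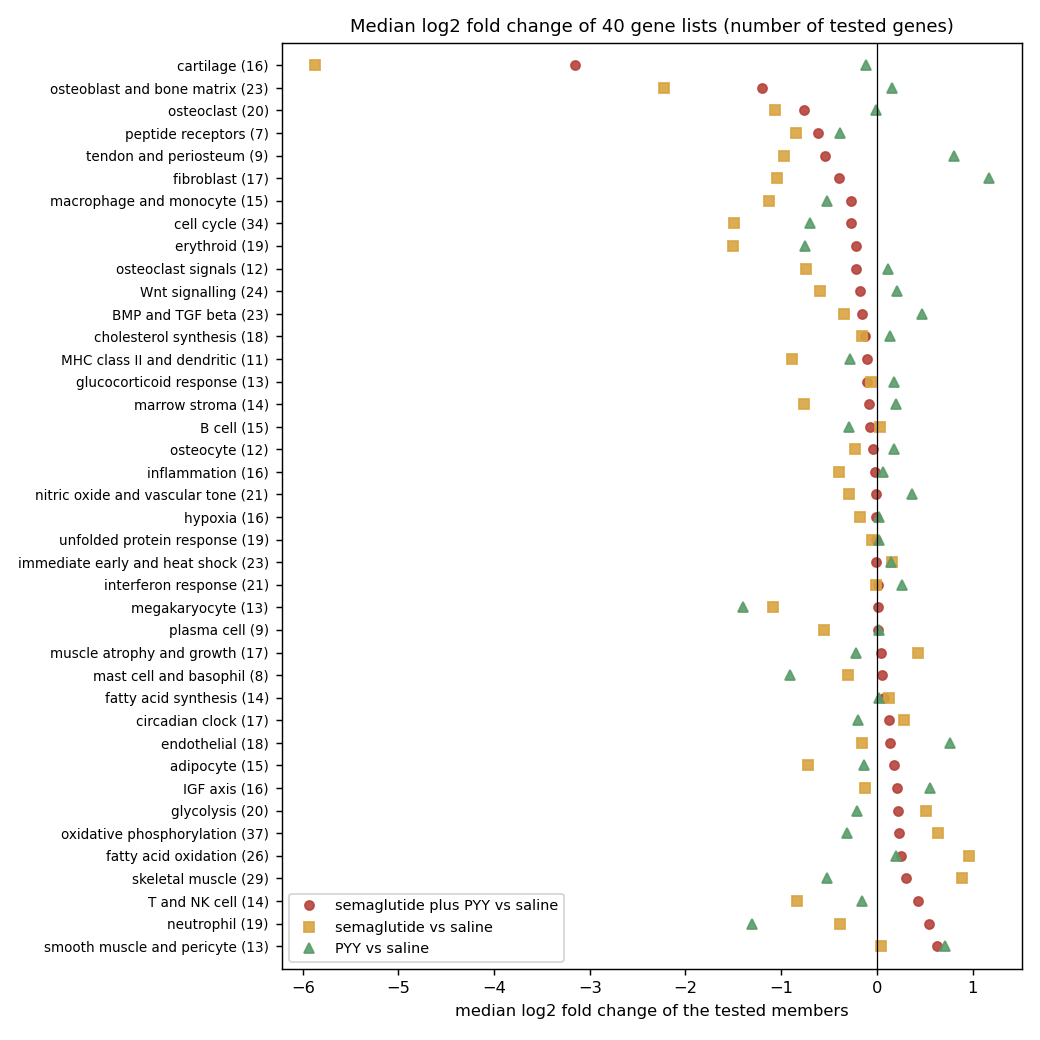
Median log2 fold change of the tested autosomal genes of 40 lists for the combination (red circles), semaglutide (yellow squares) and PYY (green triangles), each against the same 5 saline libraries. Cartilage, osteoblast and osteoclast lists have the lowest combination medians (-3.16, -1.20 and -0.76) and smooth muscle the highest (0.63).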

How the data were processed

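The authors deposited raw counts per gene for 23 libraries of rat femora. The submitters' processing notes name the genome build mRatBN7.2 and DESeq2 1.42.0, and no label or header states the aligner, counter or annotation release. Per the labels' protocols, RNA was captured on poly-T beads, and both strand-specific and non-strand-specific library chemistry is described, so reads of overlapping antisense genes may not be separable. The deposited normalized values per gene length were not used.

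Counts were filtered with filterByExpr, scaled with TMM factors and tested in edgeR 4.0.16 (R 4.3.3) by its quasi-likelihood method, with 1 mean per group over all 23 libraries and 18 residual degrees of freedom. P-values were adjusted by Benjamini-Hochberg over 15271 genes, with a threshold of 0.05. Log2 levels used a prior count of 2. The text names autosomal genes (chromosomes 1 to 20) of at least 1 CPM in the higher group: the 10 with the smallest p in each direction, the 2 with the smallest p per list, and a fixed set of bone, marrow and receptor genes. Other list members given by value are from the same 40 lists. Of 770 list entries, 749 were found under their symbol, 6 more under an earlier one, and 703 were tested on autosomes. The members and lists were chosen with earlier results of these data known. Gene coordinates are those of the deposited table. Alternatives were other scalings, no filter, DESeq2 1.42.0, limma 3.58.1 voom, the 10 libraries alone, mitochondrial genes removed, a muscle covariate, and each library left out. After the Y-linked counts were seen, fits without A248 and A318 and with A253 alone were added. The edgeR fit was tested on simulated counts, as a check of the code. Recovery of changed genes was required only at a dispersion of 0.05, a smaller spread than in these data. The check therefore does not show how many changed genes the comparison would miss.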

Additional observations from a re-analysis of the deposited data

Results flagged for a closer look

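Of 244 groups of 5 values tested, 21 (8.61%) had a library far from the other 4 by Dixon's ratio. Chance would flag about 1 in 20 groups (5%) if values were independent and normally spread. CPM values can be skewed and genes of a library vary together, so the difference between these shares does not measure an excess. Combination A320 stood high for the neutrophil and macrophage genes Lcn2 (150 CPM), Ngp (267 CPM) and Lyz2 (1202 CPM), for the B cell adaptor Blnk (13.3 CPM), for the glucose transporter Slc2a3 (34.2 CPM) and for Igf1r (3.90 CPM). Combination A253 stood high for Jund (23.6 CPM) and Tnfrsf11b (18.3 CPM).

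Saline A224 stood high for Col1a1 (2934 CPM), Plekha5 (80.8 CPM), Pdgfra (13.5 CPM) and Tnfrsf11a (7.88 CPM). Saline A229 stood high for Irf7 (49.2 CPM), Ddr2 (30.0 CPM), Fbn1 (14.6 CPM), Cenpm (7.68 CPM) and Ptgs2 (3.14 CPM), and low for Ndufv1 (25.3 CPM). Saline A232 was apart for Il7r (6.41 CPM) and Cry2 (14.3 CPM), and saline A226 for Fos (24.9 CPM).

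Outside the autosomal comparison, the 4 Y-linked genes summed to 1623 counts in combination A248, 638 in A318, 87 in A251 and 24 in A320, against 0 in each of the 5 saline libraries. The healthy control libraries A387 and A389, also labelled female, had 45 and 9.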

How the results depend on the processing

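No paired analysis was possible because the library numbers are not shared between groups. Of 2259 alternative values of 119 named genes, 2215 kept their sign and their side of the threshold, and 10 of 40 list medians kept their sign in all 19 alternatives, which leave out A253 alone. Combination against saline gave 0 calls except for 5 with DESeq2 and 93 with A253 as the only combination library. Against semaglutide there were 16 calls with DESeq2, 0 to 3 with single libraries left out (3 without A251) and 174 with A253 alone. Against PYY there were 13 with DESeq2, 1 with voom, 0 to 1 with single libraries left out (1 without A251) and 127 with A253 alone. The interaction had 3 with DESeq2 and 138 with A253 alone.

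Of genes at an unadjusted p under 0.05, the higher ones (223) numbered 517 with no low-count filter, which tests more genes, 76 with the 10 libraries alone, which has fewer samples, and 393 with A253 alone. The lower ones (245) numbered 583, 114 and 998 in those fits, 434 with the muscle covariate, and 171 to 490 with single libraries left out (490 without A320). With no filter the share rose as well as the number, to 5.53% of 19901 genes tested in both directions together, against 3.06% of 15271 in the main fit. The cause was not tested for any of these differences.

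Log2 fold changes of 18 named genes changed sign at least once, and none of these was called against saline. Among them, Cenpm was called in other comparisons, for the interaction with DESeq2 and against semaglutide without A251. With voom Ngp was at -0.23, Lyz2 -0.41, RT1-DMb -0.22, Nkg7 -0.25, Ms4a2 -0.52, Mpo -0.90, Cenpm 0.49 and Nos3 0.04. With the muscle covariate Lyz2 was at -0.36 and RT1-DMb at -0.04. Nos3 was at 0.01 with upper-quartile factors and 0.00 without mitochondrial genes. Without A248 and A318, Ndufs8 was at -0.06, Cry2 at -0.05 and Sost at 0.25. With single libraries left out, the ranges were -0.28 to 1.72 for Lcn2, -0.54 to 1.94 for Ngp, -0.86 to 1.35 for Lyz2, -0.54 to 0.49 for RT1-DMb, -1.14 to 0.21 for Fkbp11, -0.08 to 0.43 for Gata2 and -0.03 to 1.22 for Slc2a3. They were -0.65 to 0.23 for Npy1r, -0.72 to 0.48 for Sost, -1.72 to 0.23 for Tnfsf11, -0.69 to 1.15 for Cenpm, -0.22 to 0.15 for Nos3, -0.52 to 0.22 for Pdk4 and -0.31 to 0.57 for Mpo.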

Other observations

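Among lists not described above, 15 of 17 circadian clock genes were higher with the combination (median log2 fold change 0.13, but -0.08 without A251) and 14 of 20 glycolysis genes (median 0.22, but -0.14 without A251). MHC class II and dendritic cell genes had 8 of 11 lower (median -0.10, and 0.34 without A248 and A318), and cholesterol synthesis 10 of 18 lower (median -0.12, and 0.06 without those libraries). B cell genes had 8 of 15 lower (median -0.07, and -1.34 without A320). The interferon response, plasma cell, hypoxia, unfolded protein response, marrow stroma, megakaryocyte and immediate early lists had medians between -0.08 and 0.01. Some of these moved with single libraries left out. The megakaryocyte median ranged from -0.80 (without A320) to 0.65 (without A265). The ranges were -0.49 to 0.27 for plasma cell, -0.36 to 0.25 for interferon response and -0.39 to 0.17 for marrow stroma genes. None of the lists in this paragraph held a gene at an unadjusted p under 0.05 in edgeR for the combination against saline.

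Other lists held such genes at very low counts, and all were chosen after their values were seen. In the inflammation list (median -0.02) the chemokine gene Cxcl10 had 60 counts in the combination, all in A318 and A320, and 0 counts in saline, while Cxcl1 had 1 count in the combination and 60 counts in saline. In the nitric oxide list (median -0.01) Ddah2, which degrades an inhibitor of nitric oxide synthase, had 29 counts in the combination and 0 counts in saline. In the muscle atrophy list (median 0.04) the activin receptor gene Acvr2b had 20 counts in the combination and 0 counts in saline. In the mast cell list (median 0.05) Kit, the receptor of stem cell factor, had 28 counts in the combination and 134 counts in saline.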
